A study of Drosophila melanogaster with 2 samples.

Results

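The genes described are 8 members of the trithorax group of Drosophila melanogaster, brm, osa, mor, Snr1, trx, ash2, ash1 and kis, chosen by name from the 17896 annotated genes. Every deposited peak whose summit lay in the body of one of these genes or within 5 kb of it was taken. The peaks come from chromatin immunoprecipitation with sequencing (ChIP-seq) of the CG2202 protein in whole embryos collected 0 to 12 h after laying, from a stable transgenic line that makes CG2202 with GFP at its C terminus, pulled down through the tag with an anti-GFP antibody. Chromatin was sonicated to a size range given as 200 to 800. There were 2 biological replicates in 1 group, no other genotype or treatment was analysed, and the labels do not say how much untagged CG2202 the line still makes. A whole embryo mixes all of its cell types, so a peak shared by many cells and a taller peak in a few cells cannot be told apart.

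Trithorax group proteins keep developmental genes such as the homeotic genes active and act against Polycomb group repression. The Brahma complex is the fly SWI/SNF remodeller, which moves nucleosomes with the energy of ATP: brm encodes its ATPase, mor and Snr1 encode core subunits, and osa encodes the ARID-domain subunit that distinguishes the BAP form from the PBAP form. Trx is a histone H3 lysine 4 methyltransferase of the COMPASS family, Ash2 is a subunit shared by such methyltransferases, Ash1 methylates histone H3 lysine 36, and Kismet, the product of kis, is a chromodomain (CHD) remodeller.

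Across these 8 genes the pooled list held 87 summits of CG2202-GFP peaks, and 14 of them were also in the shorter IDR (irreproducible discovery rate) list. Over the whole pooled list the same held for 3571 of 30000 peaks. The 3571 IDR peaks are the peaks of highest signal in the pooled list, so IDR membership here is the same as a pooled signal of at least 120.9. Of the 14, 2 lay at the gene's own promoter, 6 at the promoter of another gene and 6 away from any promoter. The last share was 42.9%, beside 54.7% of the whole IDR list, and with 14 summits the shares cannot be set apart. They are also not like for like, since the regions are drawn around genes and the whole list includes summits outside gene regions. The strongest summit near each gene was at its own promoter for brm, in an intron and away from promoters for osa and trx, and at the promoter of another gene for the other 5. Of those 5, the kis summit was inside kis, at a nested noncoding gene in an intron, and those near ash1, Snr1, mor and ash2 were outside the gene.

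The sequences around the summits that the description turns on are given first, each as the summit base with 50 bases on either side, read from the reference genome along the strand of the gene. Capitals mark copies of the searched words that are described with the motifs further on. The brm promoter summit and the strongest distal summit, in osa, were chosen by rule. The second osa summit, the strongest intronic summits of trx and kis, the summit beyond the end of ash1 and one mor promoter summit were added after their values had been seen.
brm, own promoter, chr3L:15982933-15983033, minus strand: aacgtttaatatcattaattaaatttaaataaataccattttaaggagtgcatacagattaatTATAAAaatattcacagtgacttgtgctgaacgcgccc
osa, intron, strongest distal summit, chr3R:17704377-17704477, minus strand: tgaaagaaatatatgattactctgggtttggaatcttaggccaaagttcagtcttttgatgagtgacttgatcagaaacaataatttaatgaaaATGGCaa
osa, intron, second summit, chr3R:17700526-17700626, minus strand: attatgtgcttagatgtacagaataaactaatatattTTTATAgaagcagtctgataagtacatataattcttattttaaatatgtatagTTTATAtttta
trx, intron, chr3R:14283830-14283930, minus strand: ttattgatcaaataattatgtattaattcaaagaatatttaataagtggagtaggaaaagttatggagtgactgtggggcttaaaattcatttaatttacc
kis, intron, chr2L:223501-223601, minus strand: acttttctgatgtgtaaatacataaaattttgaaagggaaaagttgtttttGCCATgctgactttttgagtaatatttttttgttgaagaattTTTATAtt
ash1, beyond the 3′ end, chr3L:19590565-19590665, minus strand: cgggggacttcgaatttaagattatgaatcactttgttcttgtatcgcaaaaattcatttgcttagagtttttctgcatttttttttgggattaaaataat
mor, own promoter, chr3R:15972944-15973044, minus strand: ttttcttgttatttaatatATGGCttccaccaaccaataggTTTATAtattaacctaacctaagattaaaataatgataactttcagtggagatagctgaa
The first 6 are IDR summits and are rich in A and T, with GC contents of 27.7%, 31.7%, 18.8%, 25.7%, 23.8% and 29.7% in the order shown. The mor summit, at 27.7% GC, is in the pooled list and not in the IDR list.

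The gene brm (FBgn0000212, arm 3L, 15970082 to 15982869, minus strand, 2 transcription start sites, TSSs) carried the strongest promoter summit of the 8 genes. Its summit lay 114 bp upstream of the first TSS, in a peak from 15982860 to 15983156, with a pooled signal of 497 and rank 273 of 30000. Signal is the peak caller's own value, set by the authors and without a stated scale, so it is compared here within a list. Replicate 1 gave this peak a signal of 154.9 and rank 742, and replicate 2 gave 343 and rank 164, so it stood in the upper part of both lists and higher in replicate 2. The same summit was 152 bp upstream of the divergently transcribed gene Arl1, and the distances do not assign the peak to either gene. No other IDR summit fell within the brm region. The other 4 pooled summits there had signals of 29.4 to 100.8, the highest 142 bp upstream of Brr2 beyond the far end of brm.

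The gene osa (FBgn0261885, arm 3R, 17687818 to 17718350, minus strand, 1 TSS) held the most pooled summits of the 8 genes, 30. Both of its IDR summits lay in intron 4, deep in the gene. The stronger, 13923 bp downstream of the TSS, had a pooled signal of 784 and rank 84, with 322 and rank 123 in replicate 1 and 465 and rank 80 in replicate 2. It was 732 bp downstream of the TSS of the nested noncoding gene lncRNA:CR46035 and counts as distal, which means over 500 bp from every annotated TSS of any gene. The second osa summit, 17774 bp downstream of the TSS, had a pooled signal of 684 and rank 123, with 197 and rank 470 in replicate 1 and 494 and rank 61 in replicate 2. Their order was reversed between the replicates: the first summit was stronger in replicate 1 and the second in replicate 2. The second lay 165 bp upstream of another nested noncoding gene, lncRNA:CR46036, so it counts as a summit at the promoter of another gene. Introns held 18 of the 30 pooled summits, 9 in intron 4, 7 in intron 2 and 2 in intron 1, and the rest of them after the 2 IDR summits reached at most 95.6. At the osa promoter itself the list held 2 weak summits, 219 and 486 bp upstream, with pooled signals of 37.6 and 29.8. Neither reached a q-value below 0.05. Each was matched within 100 bp in 1 replicate, the first in replicate 1 at rank 10621 and the second in replicate 2 at rank 14275. Each of these replicate peaks also overlapped the other pooled peak. Replicate 2 also listed a summit 21 bp upstream of the osa TSS, with a signal of 24.1 and rank 16251.

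The gene mor (FBgn0002783, arm 3R, 15968134 to 15972913, minus strand, 1 TSS) had 6 pooled summits, 3 of them within 500 bp of its TSS and none of those 3 in the IDR list. They lay 456 bp downstream, 81 bp upstream and 348 bp upstream of the TSS, with pooled signals of 99.0, 74.5 and 28.8. The first was matched in both replicates, at rank 7604 in replicate 1 and 4782 in replicate 2. The second was found in replicate 2 at rank 2554, high enough to stand among that replicate's 3571 strongest peaks. Replicate 1 had no summit within 100 bp of it, and the best overlapping peak there ranked 16696. The third was found in replicate 1 at rank 24731, and it lay 37 bp upstream of the neighbouring gene Hel89B. The 2 IDR summits of the mor region were outside the gene. One, with a pooled signal of 226, was 39 bp upstream of CG32856 on the 3′ side, with ranks of 3414 and 907 in replicates 1 and 2. The other, with a pooled signal of 149, was 1526 bp upstream of mor and 1141 bp downstream of the TSS of Hel89B, with ranks of 4576 and 1823.

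The gene Snr1 (FBgn0011715, arm 3R, 5470926 to 5472754, plus strand, 1 TSS) is the shortest of the 8 at 1829 bp and sits among close neighbours. Its own promoter summit, 33 bp upstream of the TSS, had a pooled signal of 111.6 and rank 4058, just short of the IDR list. The replicates placed it far apart, at a signal of 25.6 and rank 15387 in replicate 1 and 92.5 and rank 2136 in replicate 2. The TSS of mRpL44 was 257 bp away. The IDR summit of the region, with a pooled signal of 288, lay 3834 bp upstream of Snr1 and 9 bp downstream of the TSS of RpL35A, which encodes a ribosomal protein. For that summit the replicate order was the opposite, with rank 544 in replicate 1 and 1638 in replicate 2. The other 2 summits of the region were at the promoters of POLDIP2 and Hcs, with pooled signals of 78.4 and 62.0, so each of its 4 summits was within 500 bp of a TSS.

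**Figure D1:**
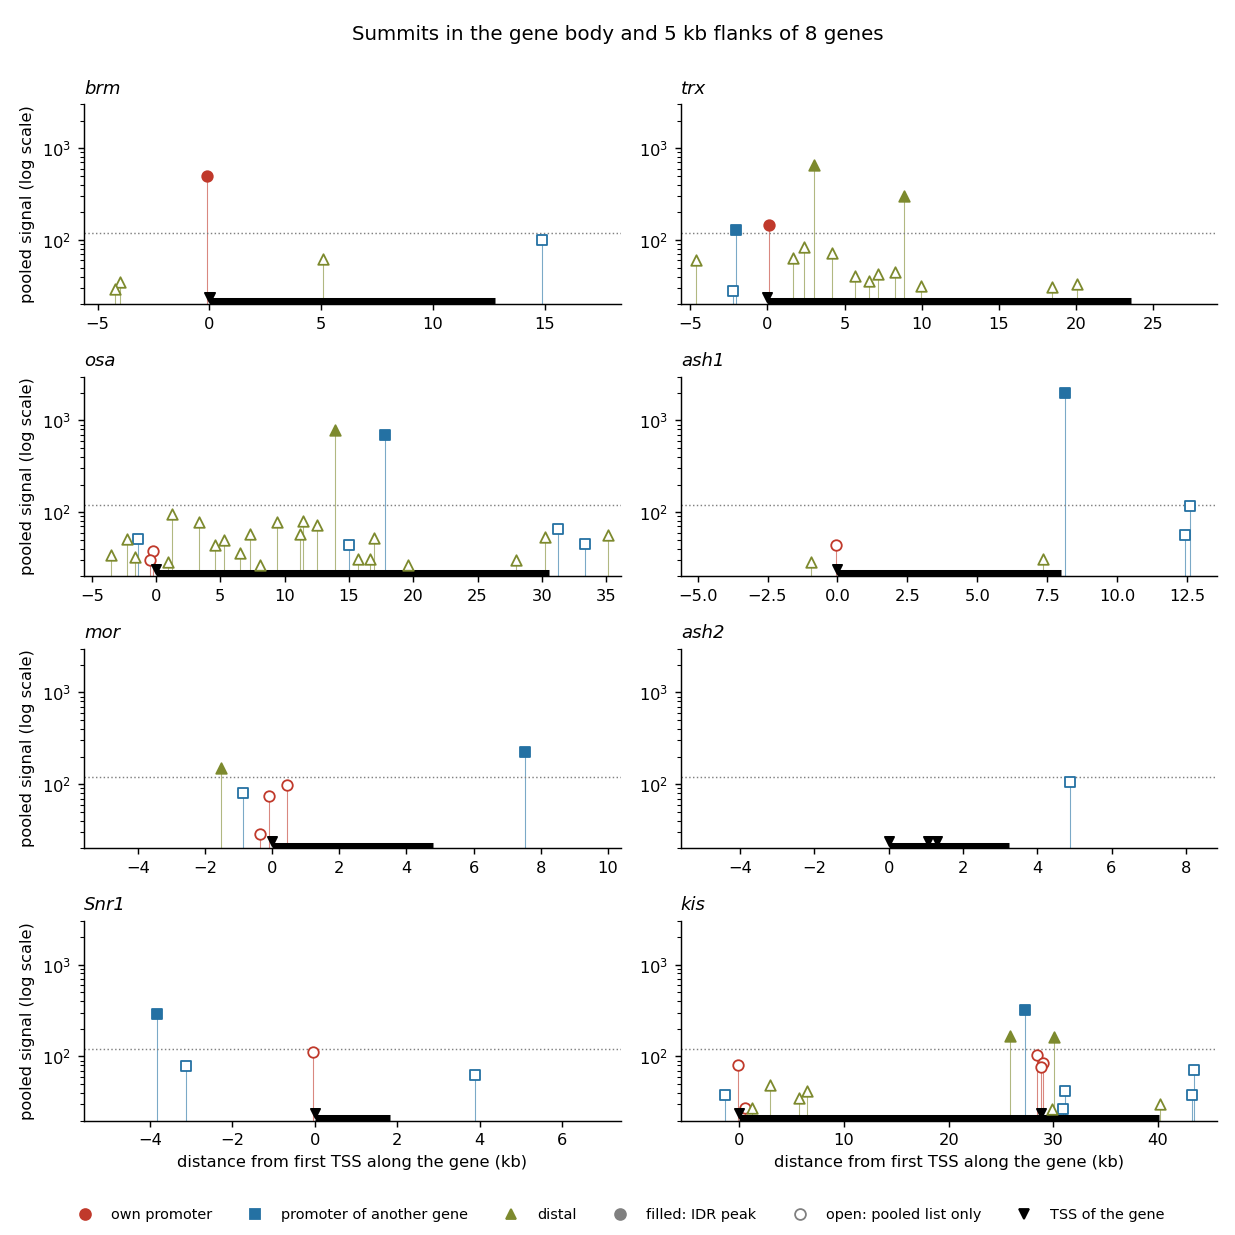
Pooled signal (log scale) of every pooled summit in the body and 5 kb flanks of the 8 genes, against distance from the first TSS along the gene in kb; black bars are gene bodies, triangles on them TSSs, filled symbols IDR peaks and the dotted line the lowest IDR signal, 120.9. The strong summits of osa and trx are in introns, that of ash1 is just past the end of the gene, and only brm and trx have a filled symbol at their own promoter.

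The gene trx (FBgn0003862, arm 3R, 14263358 to 14286903, minus strand, 1 TSS) had the most IDR summits, 4, and the widest mix of positions. Its strongest summit lay in intron 1, 3023 bp downstream of the TSS, with a pooled signal of 649 and rank 142, and with 233 and rank 310 in replicate 1 and 417 and a higher rank in replicate 2. A second distal summit, 8826 bp downstream of the TSS and in the first or second intron depending on the transcript, had a pooled signal of 302 and ranks of 482 and 1620. The promoter summit of trx was weaker than both. It lay 102 bp downstream of the TSS, in an exon outside the coding sequence, with a pooled signal of 145 and rank 2734, and with 66.9 and rank 3210 in replicate 1 and 74.4 and rank 2987 in replicate 2. Its ranks were close to each other in the replicates, and its pooled signal was just under the first quartile of the IDR list, 147. The last IDR summit, 2008 bp upstream of trx, was 160 bp upstream of the neighbouring gene red and had a pooled signal of 129, the lowest of the 14. Of the 16 pooled summits of trx, 13 were distal, and 7 were in intron 1.

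The gene ash2 (FBgn0000139, arm 3R, 24650125 to 24653376, plus strand, 3 TSSs) had the fewest summits. Around its TSSs, out to 500 bp, the pooled list had no summit. Replicate 1 alone listed one there, 114 bp upstream, with a signal of 20.1 and rank 22466. The single pooled summit of the region had a signal of 105.9, lay beyond the 3′ end of ash2 and 164 bp upstream of CG6695, and ranked 7081 in replicate 1 and 3603 in replicate 2. A missing summit says only that no peak was listed there, and the read depth behind the lists is unknown.

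The gene ash1 (FBgn0005386, arm 3L, 19590773 to 19598755, minus strand, 1 TSS) lies beside one of the strongest peaks of the whole data set. The summit at 19590615, in a peak from 19590413 to 19590840, had a pooled signal of 1991 and rank 2 of 30000, with 898 and rank 6 in replicate 1 and 1097 and rank 2 in replicate 2. Both replicates placed it among their strongest peaks. It lay past the 3′ end of ash1 and 8140 bp from the ash1 TSS, but 91 bp upstream of the TSS of CG14100. The promoter of ash1 itself carried a weak summit, 64 bp upstream of the TSS and 269 bp from the TSS of Taf6, with a pooled signal of 44.1, rank 14988 and a q-value above 0.05. That summit was matched in replicate 2 at rank 9146 and not in replicate 1. The second strongest summit of the region, with a pooled signal of 116, was 114 bp upstream of CG9330.

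The gene kis (FBgn0266557, arm 2L, 210735 to 250823, minus strand) is the longest of the 8 at 40089 bp and has 2 TSSs, 28861 bp apart. Its 3 IDR summits clustered around the downstream TSS and none was within 500 bp of it. The strongest, with a pooled signal of 322 and rank 705, lay in an intron 1589 bp upstream of the internal TSS and 32 bp downstream of the TSS of the nested noncoding gene lncRNA:CR44222. Both replicates ranked it alike, at 739 and 780. A summit 2999 bp upstream of the internal TSS had a pooled signal of 165 and ranks of 2054 and 3463. A summit 1177 bp downstream of it had a pooled signal of 162 and rank 832 in replicate 1, while replicate 2 had no summit within 100 bp and its best overlapping peak ranked 16544. That kis summit was the only one of the 14 IDR summits without a match within 100 bp in replicate 2. Within 500 bp of a kis TSS there were 5 pooled summits, with signals of 27.4 to 103.1, of which 3 lay at the internal TSS and the other 2 at the first TSS. The strongest, 407 bp upstream of the internal TSS, was matched in replicate 1 at rank 2146 and not in replicate 2. There its best overlapping peak ranked 15498. The summit nearest to the first TSS, 156 bp upstream, had a pooled signal of 80.3 and ranks of 12318 and 6086.

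Ordered by the strongest summit of the region, the pooled signals were 1991 for ash1, 784 for osa, 649 for trx, 497 for brm, 322 for kis, 288 for Snr1, 226 for mor and 105.9 for ash2. Among themselves, ash1, osa, trx and brm kept the same order in both replicate lists. Their best signals were 898, 322, 233 and 154.9 in replicate 1 and 1097, 494, 417 and 343 in replicate 2. The place of brm and of the genes below it was not kept. In replicate 1 Snr1, with 179.8, was above both kis, with 155.3, and brm, with 154.9, and the last of these were level. In replicate 2 brm, with 343, was above kis, with 171.6. In replicate 2 Snr1, with 110.1, was below mor, with 156.1. The gene ash2 was lowest in both, with 41.2 and 65.5. An IDR summit at least as strong as the best one of the gene lay in the regions of 0.0359% of protein-coding genes for ash1, 1.74% for osa, 2.62% for trx and 5.01% for brm. The same share was 10.7% for kis, 13.1% for Snr1 and 19.3% for mor. Each share includes the gene itself and any neighbour whose region holds the same peak, and gene length was not taken into account.

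An IDR summit within 500 bp of a TSS was found for 2 of the 8 genes, brm and trx. The same held for 12.1% of all annotated genes, for 14.1% of protein-coding genes and for 24.9% of the genes with a pooled promoter summit, of which the 8 genes include 7. With so few genes, 2 of 8 cannot be read as more or fewer than that background. A pooled promoter summit of any strength was found for 7 of the 8, ash2 being the exception, beside 53.5% of protein-coding genes. With a q-value below 0.05 it was found for 5 of the 8, brm, mor, Snr1, trx and kis, beside 39.9%.

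An IDR summit anywhere in the gene body or its flanks was found for 7 of the 8 genes, all but ash2. The background was 36.6% of all genes and 38.6% of protein-coding genes. In the gene body alone, without the flanks, 3 of the 8 had one, osa, trx and kis, beside 9.6% of protein-coding genes, so brm, mor, Snr1 and ash1 count through summits in their flanks. The share was higher among longer genes, at 44.8% among annotated genes of at least 1829 bp, the length of Snr1, and at 54.9% among those of at least the members' median length of 10385.5 bp. All 4 members of that length, brm, osa, trx and kis, had one. A distal IDR summit was found in the regions of 4 of the 8, osa, mor, trx and kis, beside 13.5% of protein-coding genes. These are descriptions of named genes, and no test was made of the list.

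The regions of the 8 genes, 204.8 kb together, held 0.684 IDR summits per 10 kb, against 0.267 over the 6 chromosome arms and 0.295 over the regions of all protein-coding genes. For pooled summits the values were 4.25, 2.24 and 2.44 per 10 kb. The density was uneven among the genes, from 7.40 pooled summits per 10 kb at osa and 4.77 at trx to 0.755 at ash2. For IDR summits the order differed, with 1.35 per 10 kb at mor, 1.19 at trx and 0.845 at Snr1. It was 0.493 at osa, 0.439 at brm and 0 at ash2. As many pooled summits as at osa were found in the regions of 0.660% of protein-coding genes, while 4.68% are at least as long. For trx the 2 shares were 3.06% and 6.17%, and for kis 2.15% and 3.30%. These counts include weak summits: a q-value below 0.05 was reached by 16 of the 30 at osa, 8 of 16 at trx and 9 of 19 at kis. Over all pooled peaks 44.0% reached it. For brm, with 5 pooled summits, 43.0% of protein-coding genes had as many and 11.3% were at least as long.

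**Figure D2:**
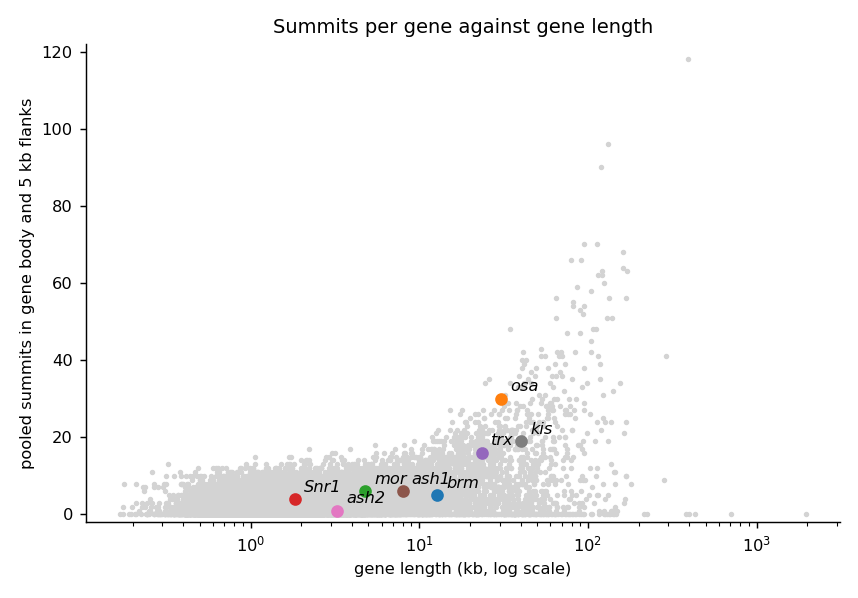
Number of pooled summits in the gene body and 5 kb flanks against gene length (kb, log scale), with 1 grey point for each of 13945 protein-coding genes and coloured points for the 8 genes described. The osa point, with 30 summits, stands near the upper edge of genes of its length, and the ash2 point, with 1, near the lower edge.

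Of the 87 pooled summits, 14 were at the gene's own promoter, 23 at the promoter of another gene and 50 distal. Of the 14 IDR summits, 2 were at the own promoter, 6 at the promoter of another gene and 6 distal. The distal share of the pooled summits was 57.5%, beside 67.8% of the whole pooled list, which also includes summits outside gene regions. By place in the gene, 7 of the 14 IDR summits were in introns, 4 upstream, 2 downstream, 1 in an exon outside the coding sequence and none in a coding exon. Among all 87, introns held 42 and coding exons 6. The 7 intronic IDR summits were all in osa, trx and kis, the longest of the genes. Shares by place in the gene were not computed over the whole lists. Whether these counts are unusual was therefore not tested. A q-value below 0.05 was reached by 49 of the 87 (56.3%), beside 44.0% of all pooled peaks. These were 9 of the 14 own-promoter summits, 16 of the 23 at other promoters and 24 of the 50 distal ones.

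The signals of the 14 IDR summits ran from 129 to 1991 with a median of 295, beside a median of 194 and quartiles of 147 and 285 over the IDR list. The 100 strongest pooled peaks include 2 of them, at ash1 and osa, the 300 strongest include 5 and the 1000 strongest include 8. Just below the lowest IDR signal stood summits at 116.1 by CG9330 beside ash1, 111.6 at the Snr1 promoter, 105.9 beside ash2 and 103.1 at kis, and just above it the trx upstream summit at 129. At the edge of the 5 kb flank, an IDR summit of signal 128.5 lay 5373 bp from osa and was left out, as was a pooled summit of 69.3 at 5316 bp from brm. Just inside were the CG9330 summit at 4634 bp from ash1, a summit of 61.1 at 4632 bp from trx and one of 56.6 at 4581 bp from osa.

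The replicates were compared by rank, since both lists hold 30000 peaks. Within 100 bp of the 87 pooled summits, replicate 1 had a summit for 59 (67.8%) and replicate 2 for 55 (63.2%), beside 61.3% and 60.0% of all pooled summits. Both replicates had one for 37, replicate 1 alone for 22, replicate 2 alone for 18 and neither for 10. For the IDR summits the counts were 14 of 14 in replicate 1 and 13 of 14 in replicate 2, beside 94.5% and 97.1% over the IDR list. In each replicate 13 of the 14 were covered by one of its 3571 strongest peaks. The exception in replicate 1 was the mor summit 1526 bp upstream, and in replicate 2 it was the kis summit 1177 bp downstream of the internal TSS.

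Over the 37 summits matched in both replicates, Spearman's rho of the ranks was 0.794, and over all 10478 pooled summits so matched it was 0.649. These are descriptions across summits, which share the 2 libraries and whose matching already favours strong peaks. Of the 6 own-promoter summits matched in both, 5 ranked higher in replicate 2, at brm, mor, Snr1, trx and the first TSS of kis, and 1 ranked higher in replicate 1, downstream of the internal kis TSS. Over all promoter summits matched in both, 54.7% of 4207 ranked higher in replicate 2. For distal summits of the 8 genes, 11 of 19 did, beside 47.3% of 6271 in all. Among these 6 the widest gap was that of Snr1, 15387 against 2136.

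**Figure D3:**
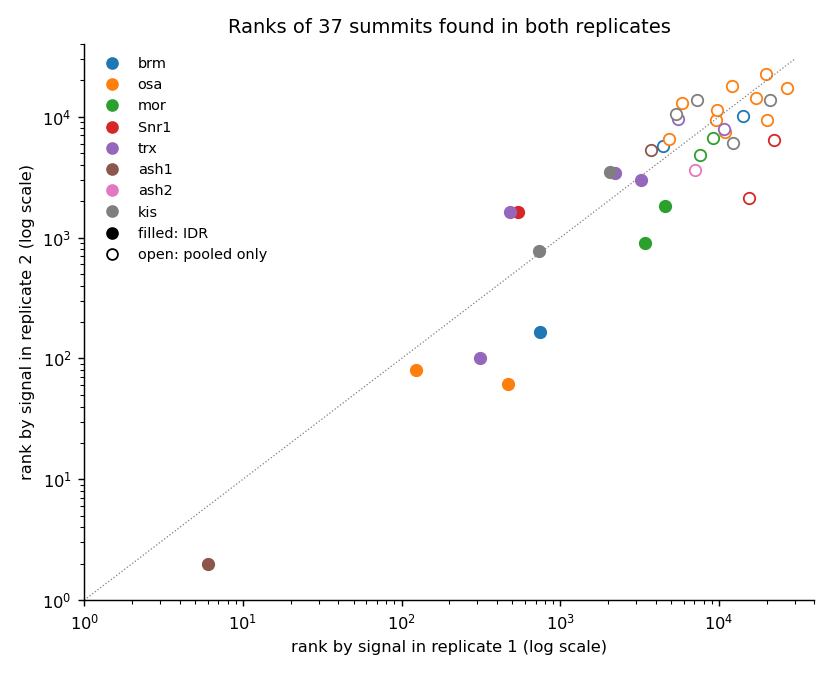
Rank by signal in replicate 2 against rank in replicate 1 (both log scales, 1 is strongest) for the 37 pooled summits of the 8 genes with a summit within 100 bp in both replicates; filled points are IDR summits and the dotted line marks equal ranks. The ash1 flank summit is at ranks 6 and 2, the strongest osa, trx and brm summits follow, and the second osa summit, at 470 and 61, and the Snr1 promoter summit, at 15387 and 2136, lie far from the line.

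The other genes of these pathways were taken from a list of 36 further Brahma complex, COMPASS, Ash1 complex, CHD and other trithorax group genes. An IDR promoter summit was found for 14 of the 36, beside the 14.1% of protein-coding genes and the 2 of 8 given above. The 36 include 32 with a pooled promoter summit, and among all genes with one the share was 24.9%. By group these were 3 of 8 other Brahma complex genes, 2 of 12 COMPASS genes, 0 of 2 Ash1 complex genes, 1 of 3 CHD genes and 8 of 11 other trithorax group genes. At a q-value below 0.05 a promoter summit was found for 28 of the 36, beside 39.9% of protein-coding genes, and 23 had an IDR summit in their region, beside 38.6%. The region share was higher among longer genes, and the lengths of the 36 were not taken into account. The 8 strongest of the 14 had pooled promoter signals of 206 for Brd7-9, 205 for the remodeller gene Chd1, 190.1 for Kdm5, which encodes a histone demethylase, 184.0 for Bap60, 183.8 for Act5C, 179.1 for Trl, which encodes GAGA factor, 157 for tna and 146 for Dpy-30L1. Of these 8 summits, those of Chd1, Bap60, Act5C and Dpy-30L1 lay nearer to the TSS of a neighbouring gene than to their own. Those of Brd7-9, Kdm5, Trl and tna lay nearer to their own. All 14 signals lay between 131 and 206, below the 497 of brm, and the 145 of trx was within their range. Among the PBAP-specific genes, polybromo had no pooled promoter summit. Bap170 and e(y)3 had one with signals of 86.7 and 51.3, beside 37.6 for osa of the BAP form. The replicates differed for all 3 of these summits. That of Bap170 ranked 23471 in replicate 1 and 3485 in replicate 2. That of e(y)3 was unmatched in replicate 1 and that of osa in replicate 2. The TSS of Trap1 was 164 bp from the Bap170 summit, and that of Rcd-1 was 494 bp from the e(y)3 summit.

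**Figure D4:**
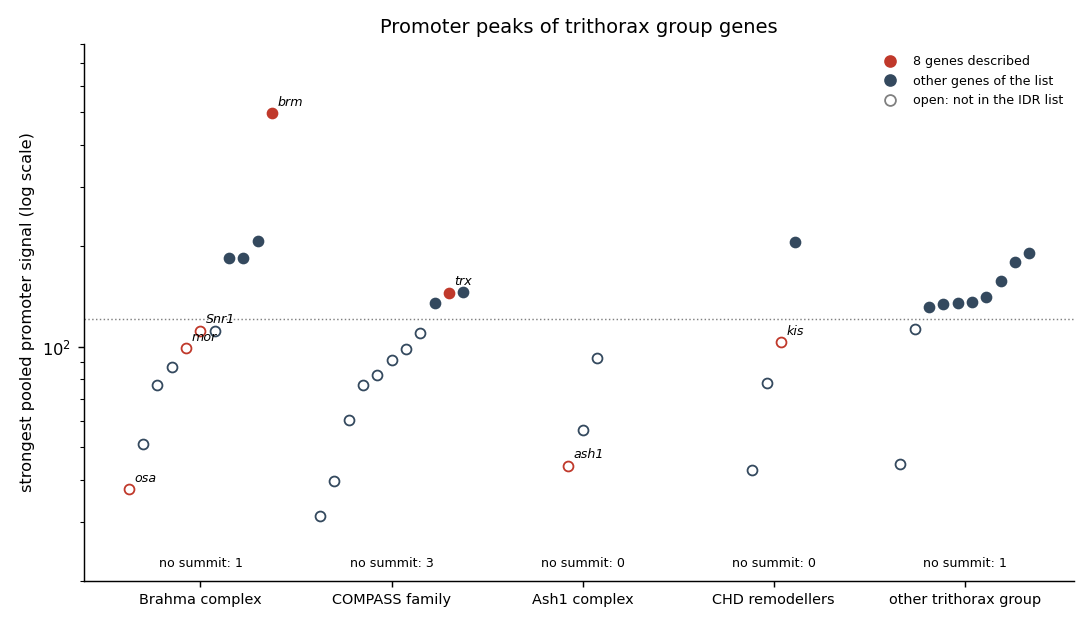
Strongest pooled promoter signal (log scale) of each gene of the 5 groups, sorted within a group, with the 8 genes described in red and labelled where they have a promoter summit, the others in blue; filled points are IDR summits, the dotted line is at 120.9, and genes without a promoter summit are counted below. The brm point at 497 stands above all others, whose highest is 206.

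The sequence within 50 bp of the 14 IDR summits had a median GC content of 31.2%, from 17.8% to 51.5%, against 44.6% at the other 73 pooled summits of the 8 genes. Over the whole lists the medians were 32.7% for IDR and 40.6% for pooled summits, so the IDR summits of these genes had a composition near that of IDR summits in general. The distal kis summit 2999 bp upstream of the internal TSS was the least like the rest, at 51.5%.

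A set of 8 words was searched on both strands in the same windows. TATAAA, the TATA box core, was present at 4 of the 14 IDR summits, at brm, kis, osa and trx, beside 22.5% of all IDR and 13.8% of all pooled summits. GCCAT, the core of the site of the Polycomb group recruiter Pho, was present at 3 of the 14, at osa and kis, beside 13.3% and 18.1%. TATCGATA, the DNA replication-related element, was present at 1 of the 14, the mor summit at CG32856, beside 1.15% and 1.04%. GAGAG, bound by GAGA factor, was at 0 of the 14 and at 12 of the other 73, beside 9.38% and 12.4%. CAGCTG, an E-box, was at 0 of the 14 and 5 of the 73, beside 3.44% and 4.98%. GGTCACAC, the core of a promoter element, was at 0 of the 14 and at 1 of the 73, the ash1 promoter summit, beside 0.952% and 0.970%. CACGTG, another E-box, was at none of the 87, beside 0.728% and 1.15%, and neither was CAGGTAG, the Zelda site, beside 0.504% and 0.533%. A match shows only that the letters are there, and with 14 windows the counts cannot be set apart from the background shares.

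In the promoters themselves, from 250 bp before to 50 bp after the TSS, TATAAA was in 5 of 8 (Snr1, brm, mor, osa and trx), beside 45.8% of protein-coding promoters. GCCAT was also in 5 of 8 (Snr1, ash2, brm, kis and mor), beside 41.2%. TATCGATA was in those of mor and osa, beside 9.36%, and GGTCACAC in those of ash1 and trx, beside 7.70%. GAGAG was in that of ash2, beside 29.7%, and CAGCTG in that of ash1, beside 17.7%. CACGTG and CAGGTAG were in none, beside 4.20% and 1.64%.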

How the data were processed

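The data are 4 deposited peak lists on the dm6 assembly, 1 for each of the 2 replicates, 1 pooled and 1 IDR list. The deposited text files derive each replicate list from its own alignment with a control, the pooled list from both alignments, and the IDR list from the other lists. The sources used here do not name the aligner, the peak caller or the IDR threshold. The authors deposited a signal value for each peak, used as it stands. The authors also deposited a −log10 q-value for each peak, which stops at 4.12 in the pooled list and served only for the threshold q < 0.05, reached by 13201 of 30000 pooled peaks, 11103 of replicate 1 and 12466 of replicate 2. The lists reach down to signals of 26.4, 16.3 and 15.9. Depth is unknown, so no interval was computed.

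Genes and TSSs were from Ensembl release 115, without pseudogenes and transposable elements, and sequence from the Release 6 genome, whose arm lengths match dm6. Positions count from 1. Promoter summits were those at most 500 bp from a TSS, and a summit that near to a member and to a neighbour was counted as the member's. A replicate match was the nearest summit within 100 bp. Named items are the 8 genes with their strongest promoter summit and IDR summits, and up to 8 further pathway genes by signal. The members, gene lists and words were chosen with earlier results of these data known. Both samples form 1 group, so no groups were tested. Alternatives were other TSS windows and flanks, stricter and looser lists, single replicates and merged summits. The counting was tested on simulated data. The tools were matplotlib 3.10.9, scipy 1.17.1, pandas 2.3.3 and numpy 2.4.6 under Python 3.11.15.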

Additional observations from a re-analysis of the deposited data

How the results depend on the processing

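Of 37 recomputed counts, 25 stayed within 1.5 times the reported count and 12 did not. The reported counts were 2 genes with an IDR promoter summit, 7 with an IDR summit in the region, 14 IDR summits of which 6 were distal, and 14 further pathway genes with an IDR promoter summit. With the gene body alone and no flank, 3 genes (osa, trx and kis) and 8 summits were left, since the IDR summits near brm, mor, Snr1 and ash1 and 1 of the 4 of trx lie outside the gene. Among the 1000 strongest IDR peaks, 1 gene (brm) had a promoter summit, 8 summits remained in the regions, 3 of them distal, and 0 further pathway genes had a promoter summit. With all pooled peaks of q < 0.05 the counts were 5 genes, 49 summits, 24 distal and 28 pathway genes. A TSS window of 250 bp gave a pathway count of 7. Using the 3571 strongest peaks of 1 replicate alone, the genes with a promoter summit numbered 3 to 4: brm, mor, Snr1 and trx without replicate 1, and brm, trx and kis without replicate 2. Merging summits within 100 bp changed no count. No paired analysis was possible because both samples belong to 1 group. Read depth, which limits what weak summits can show, was not given in the sources used here, and a summit between close genes cannot be assigned to 1 of them by distance.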
